A study of Homo sapiens with 24 samples.

Results

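The transcripts of 10 ETS transcription factor genes, SPDEF, EHF, ELF3, ELF1, GABPA, ELK4, ETS1, ETS2, ETV6 and FLI1, were followed across 24 RNA sequencing libraries from 3 human cell lines. They were taken by gene symbol from tables of 26346 genes, and all 10 were found. Both VCaP and LNCaP derive from prostate cancer, and SW13 comes from an adrenal carcinoma and has little BRG1, the ATPase subunit (gene SMARCA4) of the BAF chromatin remodeler. VCaP cells, in which the TMPRSS2 fusion drives ERG, carried a knockdown construct against ERG (shERG), one against ARID1A (shARID1A, another BAF subunit) or a control (shCt). LNCaP cells carried V5-tagged ERG, the ETS factor ETV1 or the empty vector. SW13 cells carried 2 constructs at once, BRG1, its ATPase mutant BRG1-K785R or the control called GFP, each beside ERG or the empty vector (Empty). Lentivirus was left on for 48 h, and the cells were then kept under drug selection, for 8 days with puromycin in VCaP, 4 days with blasticidin in LNCaP and 2 days with both drugs in SW13. Each of the 12 groups had 2 libraries from separate infections, so every group rests on n = 2, and SD below is over those 2 libraries. The constructs are expressed from lentiviral vectors and not from the cells' own promoters.

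ETS factors share a winged-helix DNA-binding domain that reads a GGAA core, so many of them can occupy the same sites and the set of factors a cell makes bears on which one is there. SPDEF, EHF and ELF3 are made mostly in epithelia, where SPDEF serves luminal and secretory differentiation in prostate, breast and gut and also accepts a GGAT core. ELF1, GABPA, ELK4, ETS1, ETS2 and ETV6 are made in many cell types. ERG, which the TMPRSS2 fusion places under androgen control in prostate cancer, is normally an endothelial and blood factor, as is its closest relative FLI1.

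The libraries held 19754265 to 41996681 counted reads. ERG stood at 81.0 and 87.9 CPM (counts scaled to the library total) with shERG, against 330.4 and 354 CPM with shCt, and at 958 to 2148 CPM in the 8 libraries with the ERG construct. ARID1A stood at 71.9 and 75.3 CPM with shARID1A, against 249.8 and 251 CPM with shCt. ETV1 stood at 3749 and 3626 CPM with the ETV1 construct, against 567.8 and 590.5 CPM with LNCaP Empty, so the Empty cells already had ETV1. SMARCA4 in SW13 stood at 1959 to 2264 CPM in the 4 libraries with BRG1 and at 1417 to 2180 CPM in those with BRG1-K785R, against 25.5 to 35.4 CPM in those with GFP. All 10 luminal prostate markers had a mean of 1 CPM or more in every VCaP and LNCaP group. In SW13, 1 of 7 adrenal cortex markers reached 1 CPM (CYP21A2, which has a near-identical pseudogene). The steroidogenic genes STAR, CYP11A1 and NR5A1 stayed under 1 CPM in all 12 libraries, so the adrenal label of SW13 does not show in these markers. In bulk RNA, fewer cells of a type and less RNA per cell cannot be told apart.

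The stretches upstream of 4 members are shown, with the core that ETS factors read marked in them. SPDEF was chosen for its fall with shERG, ETV6 for its rise with ERG in LNCaP and SW13, and GABPA and ELK4 because they hold the full consensus. They are the 250 bases before the transcription start in RefSeq, build GRCh38.p14, read along the gene's strand. The capitals mark GGAA or its complement TTCC, extended to the full consensus CCGGAAGT (ACTTCCGG on the other strand) where that is present.
SPDEF (minus strand, chr6:34556330-34556579): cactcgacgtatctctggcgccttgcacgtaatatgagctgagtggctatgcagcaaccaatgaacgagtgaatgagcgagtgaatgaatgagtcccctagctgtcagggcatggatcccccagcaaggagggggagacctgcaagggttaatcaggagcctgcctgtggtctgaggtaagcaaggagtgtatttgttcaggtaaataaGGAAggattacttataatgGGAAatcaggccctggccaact
ETV6 (plus strand, chr12:11649424-11649673): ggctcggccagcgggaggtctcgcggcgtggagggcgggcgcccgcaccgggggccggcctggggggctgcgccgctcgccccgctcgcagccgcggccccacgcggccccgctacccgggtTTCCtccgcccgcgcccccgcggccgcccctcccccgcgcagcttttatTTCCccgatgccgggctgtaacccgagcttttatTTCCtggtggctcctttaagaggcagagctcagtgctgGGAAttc
GABPA (plus strand, chr21:25734722-25734971): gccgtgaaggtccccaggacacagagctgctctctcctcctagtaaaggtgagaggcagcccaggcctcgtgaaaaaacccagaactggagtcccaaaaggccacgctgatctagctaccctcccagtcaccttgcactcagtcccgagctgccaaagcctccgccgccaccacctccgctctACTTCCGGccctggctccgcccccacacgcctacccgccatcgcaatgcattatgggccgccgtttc
ELK4 (minus strand, chr1:205632012-205632261): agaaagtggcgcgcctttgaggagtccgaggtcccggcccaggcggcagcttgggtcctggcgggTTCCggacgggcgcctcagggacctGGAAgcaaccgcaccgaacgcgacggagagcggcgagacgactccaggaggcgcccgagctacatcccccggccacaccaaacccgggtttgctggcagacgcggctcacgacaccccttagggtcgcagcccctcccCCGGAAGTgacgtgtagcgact
RefSeq gave 12 such stretches for 8 of the members, several genes having more than 1 start. The core was found, on either strand, in 10 of the 12, but it is also present in 92.7% of the 35116 upstream stretches in the table. The 8-base consensus, which holds the core inside it, was found for 2 members, GABPA (starting 67 bases before the start) and ELK4 (22 bases before it), and in 3.42% of all stretches. SPDEF has 2 cores and ETV6 has 4 in the stretch shown. A match of letters is a description and not a bound site.

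The epithelial factors set the prostate lines apart from SW13, while most of the widely made factors were within a few-fold of each other in the 3 lines. Per gene length, SPDEF led in the VCaP control, at 182 and 188 RPKM (CPM per kilobase of gene), followed by EHF at 60.9 and 61.8 RPKM and ELF3 at 45.4 and 49.8 RPKM. In the LNCaP control the order was EHF at 111 and 112 RPKM, SPDEF at 51.4 and 54.1 RPKM and, below ELK4, ELF1 and GABPA, ELF3 at 8.12 and 8.42 RPKM. The widely made members were lower than the leading epithelial ones in both lines, with GABPA between 9.71 and 14.4 RPKM and ETV6 between 2.05 and 2.63 RPKM. In the SW13 control the leading member was GABPA, at 14.2 and 14.5 RPKM, and the 3 epithelial genes had 1 to 6 reads per library. Summed, SPDEF, EHF and ELF3 made up 76.5 to 86.7% of the members' RPKM in VCaP, 79.5 to 82.5% in LNCaP and 0.219 to 2.45% in SW13.

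**Figure D1:**
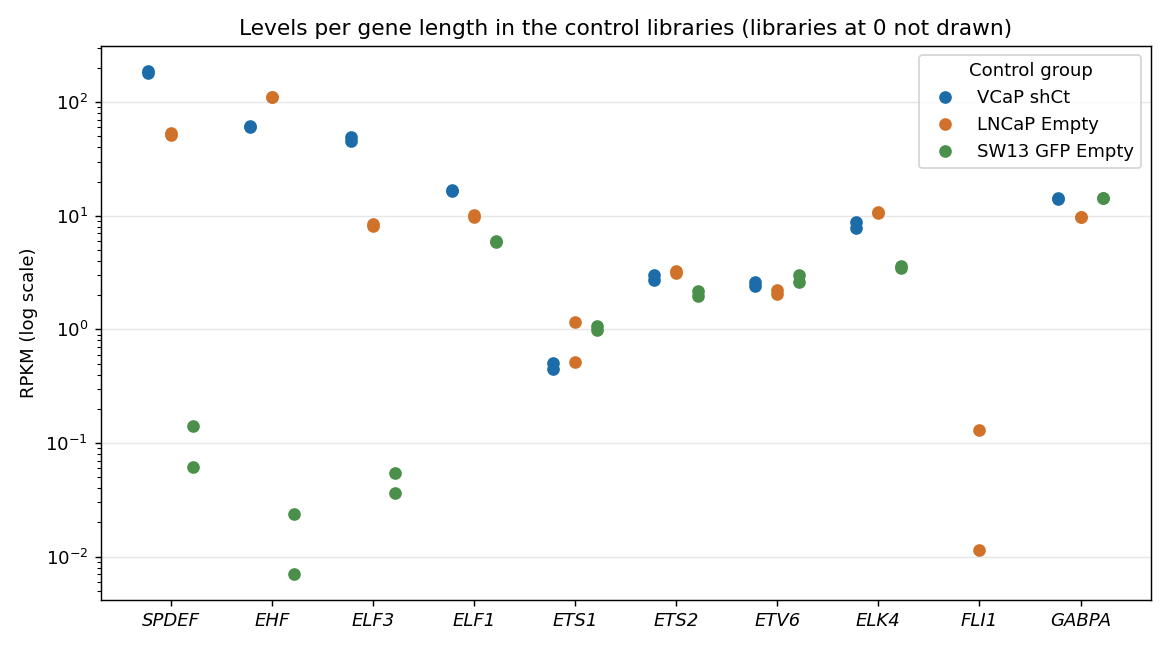
RPKM of the 10 members in the 2 control libraries of each line (points, log axis), VCaP shCt, LNCaP Empty and SW13 GFP Empty. SPDEF, EHF and ELF3 lie at or above 8.12 RPKM in both prostate lines and at or under 0.14 RPKM in SW13, while GABPA lies between 9.71 and 14.5 RPKM in all 3.

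The controls were compared in 1 fit over all 24 libraries. Tests throughout are edgeR's two-sided quasi-likelihood F test with Benjamini-Hochberg adjustment over all genes tested, called at an adjusted p of 0.05, and each log2 change carries a standard error (SE). These fits scale libraries by TMM, which assumes that most genes do not move, so a log2 change can differ from the ratio of the CPM. Between the VCaP and LNCaP controls 77.7% of all genes tested were called, and 9 of the 10 members were, 5 higher and 4 lower in VCaP. SPDEF was higher in VCaP by 1.89 ± 0.07 on the log2 scale (adjusted p = 1.05e-18) and ELF3 by 2.61 ± 0.09 (adjusted p = 2.18e-19), while EHF was lower (-0.78 ± 0.07, adjusted p = 1.46e-10). ELF1 (0.84 ± 0.06), GABPA (0.64 ± 0.07) and ETV6 (0.31 ± 0.1) were higher in VCaP and ELK4 lower (-0.29 ± 0.07). The ETV6 call was lost without VCaP shCt 1 (adjusted p = 0.104) or LNCaP Empty 1 (0.0563). The ETS1 call (-0.75 ± 0.26, adjusted p = 0.0122) rested on the second LNCaP Empty library, with 272 reads against 114 in the first, and without it the difference was -0.01. So did the call of FLI1, the other member lower in VCaP, with 0 reads in both VCaP shCt libraries, against 2 and 24 in LNCaP Empty. Without the second Empty library the FLI1 change was -3.59. ETS2 was not called (-0.08, approximate 95% interval from the SE -0.33 to 0.16).

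Between SW13 GFP Empty and LNCaP Empty 79.3% of genes were called, with 2 members higher and 7 lower in SW13. SPDEF had 6 and 3 reads in SW13, against 3907 and 4347 in LNCaP. EHF had 3 and 1 reads in SW13, against 24959 and 26226 in LNCaP, and ELF3 had 4 and 3 reads, against 1085 and 1107. The groups of all 3 genes were far apart, and all 3 calls were lower in SW13 (adjusted p = 1.52e-25, 3.64e-28 and 4.19e-20). Of the widely made factors, ELK4 (-1.56 ± 0.08), ELF1 (-0.7 ± 0.07) and ETS2 (-0.6 ± 0.13) were lower in SW13 and GABPA (0.6 ± 0.07) and ETV6 (0.42 ± 0.1) higher. ETS1 was not called (0.31 ± 0.24), but was higher in SW13 by 1.03 without the second LNCaP Empty library. FLI1, the remaining member of the 7 lower, had 0 reads in both SW13 libraries, against 2 and 24 in LNCaP Empty. Its call rested on that second library, without which the FLI1 change was -3.59. Between VCaP shCt and SW13 GFP Empty, where 80.7% of genes were called, 6 members were higher and 1, ETS1 (-1.06 ± 0.27), lower in VCaP. GABPA (0.04, 95% interval -0.09 to 0.17) and ETV6 (-0.11, 95% interval -0.31 to 0.09) were not called there.

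**Figure D2:**
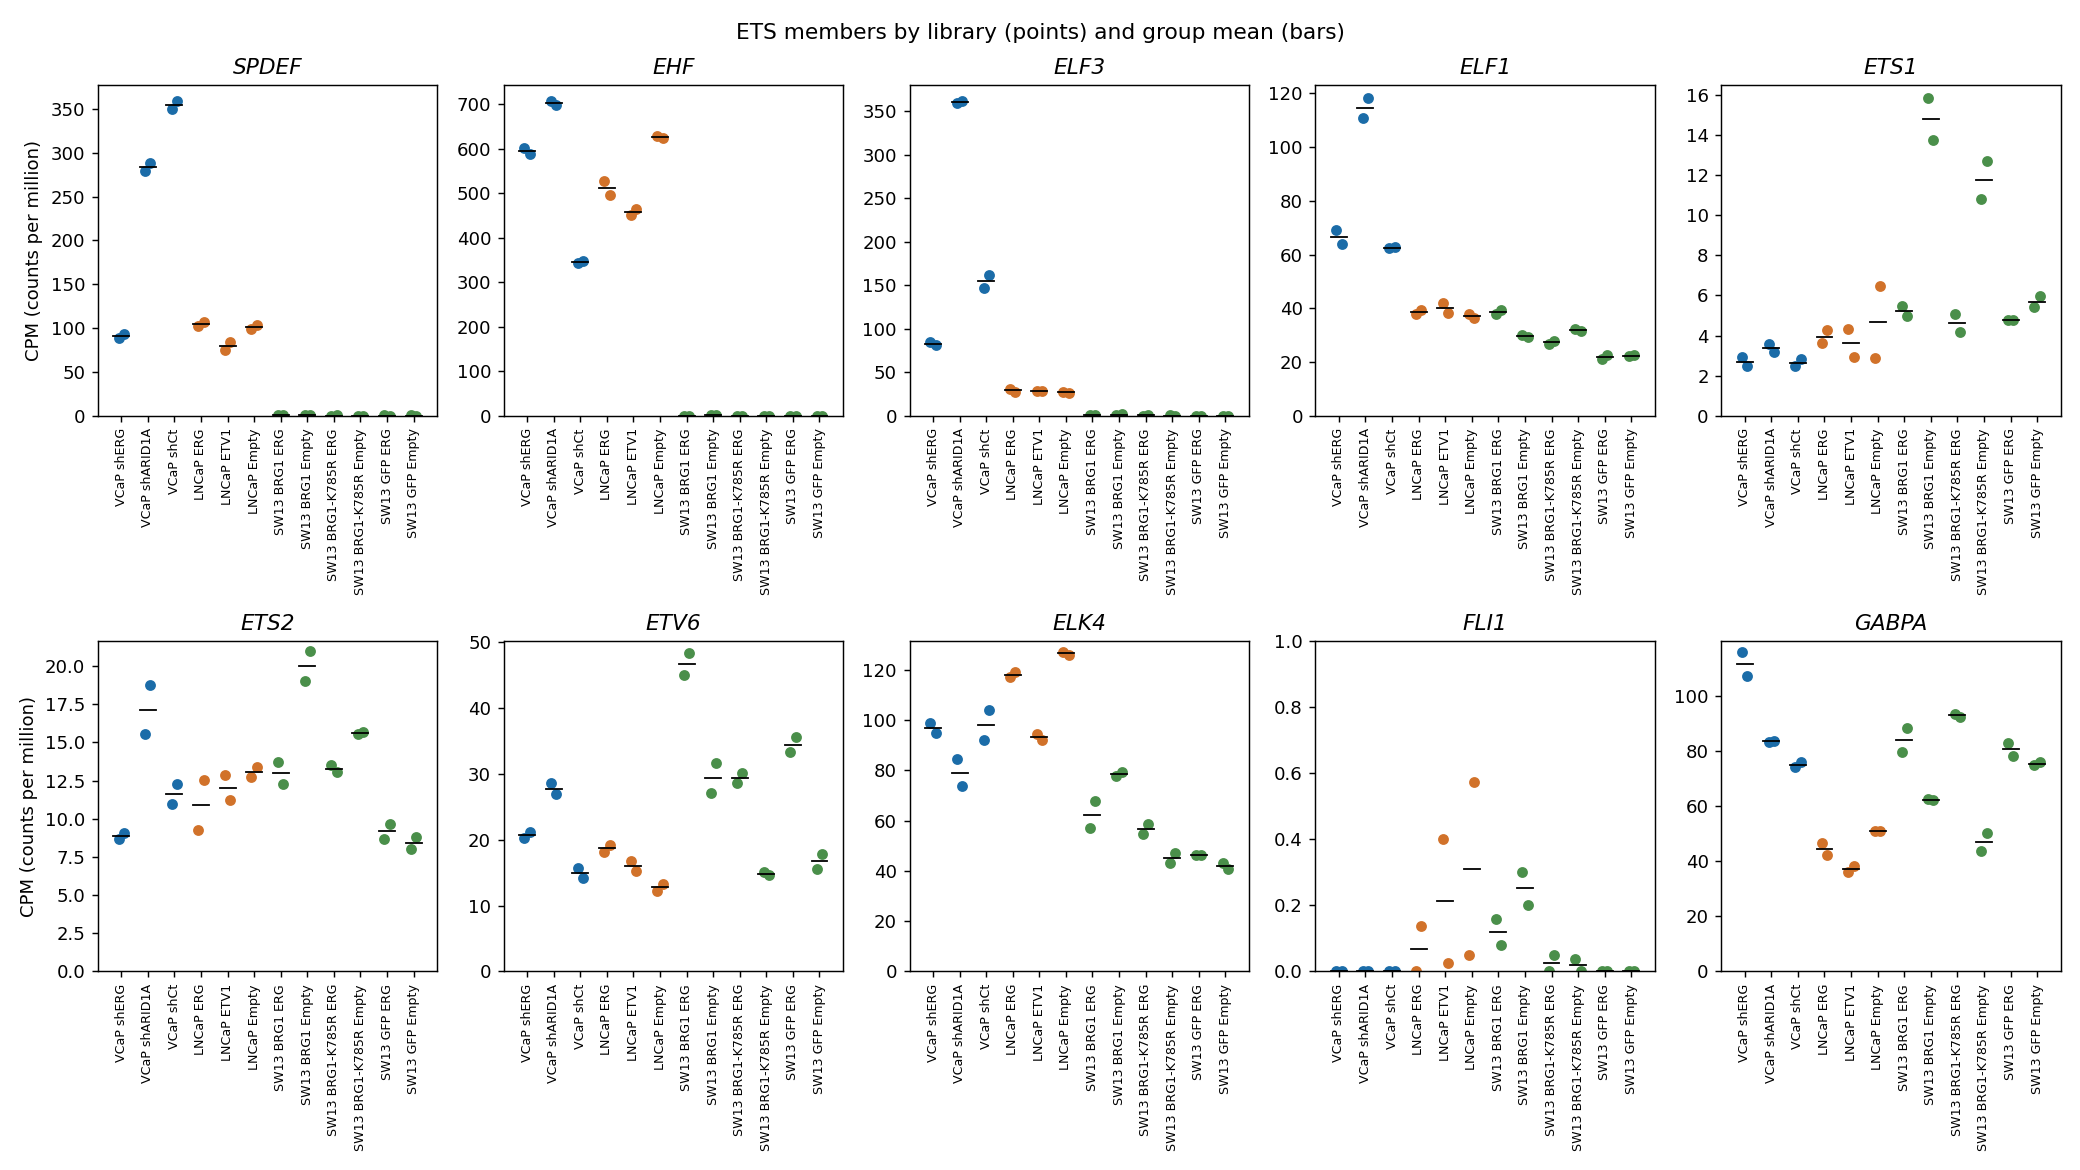
CPM of each member (linear axes from 0, each with its own scale) in the 24 libraries, points for libraries and bars for group means, in blue for VCaP, orange for LNCaP and green for SW13. SPDEF is lowest among VCaP groups with shERG, ELF3 and ELF1 are highest of all groups with shARID1A, and ETV6 is higher with ERG than with Empty in LNCaP and in each SW13 background.

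In VCaP, knockdown of ERG went with a fall of SPDEF and ELF3 and a rise of EHF, so the 3 epithelial factors did not move one way. SPDEF stood at 88.9 and 93.3 CPM with shERG, against 349 and 359 CPM with shCt. The groups were far apart, and SPDEF was 4.42-fold lower with shERG (log2 change -2.14 ± 0.05, adjusted p = 1.56e-19). ELF3, which serves epithelial differentiation and inflammatory responses, stood at 81.0 and 84.6 CPM with shERG, against 147 and 162 CPM with shCt (-1.08 ± 0.05, adjusted p = 3.15e-14). EHF, a factor of glandular epithelia close to ELF3, stood at 587 and 601 CPM with shERG, against 344 and 348 CPM with shCt (0.6 ± 0.04, adjusted p = 4.43e-11). Per gene length EHF was then the leading member, at 104 and 107 RPKM with shERG, where SPDEF had 46.5 and 48.8 RPKM.

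Among the widely made factors, changes with shERG were smaller. GABPA, which needs a GABPB partner to activate housekeeping and mitochondrial genes, stood at 107 and 116 CPM with shERG, against 74.2 and 75.9 CPM with shCt (0.39 ± 0.05, adjusted p = 6.96e-07). Its partner gene GABPB1 went the other way (-0.5), and GABPB2 rose (0.36). ETS2, a factor activated by RAS and MAPK signalling, stood at 8.66 and 9.06 CPM with shERG, against 11 and 12.3 CPM with shCt (-0.58 ± 0.12, adjusted p = 0.000151). ETV6, a repressor that polymerizes through its pointed domain, stood at 20.2 and 21.1 CPM with shERG, against 14.3 and 15.7 CPM with shCt (0.28 ± 0.09, adjusted p = 0.00852). The ETV6 groups did not overlap, yet the call was lost without shCt 2 (adjusted p = 0.116) or shERG 2 (0.0548). ELK4, which acts with SRF at serum response elements, was at 94.9 and 98.7 CPM with shERG, against 92.3 and 104 CPM with shCt, so that its groups overlapped. Its call (-0.2 ± 0.06, adjusted p = 0.0066) was lost when library totals replaced TMM (-0.02, adjusted p = 0.789), with DESeq2 (-0.17, adjusted p = 0.0509) and without shCt 2 (-0.13, adjusted p = 0.137) or shERG 1 (-0.17, adjusted p = 0.0619). ELF1 (-0.09, 95% interval -0.2 to 0.02) and ETS1 (-0.15, 95% interval -0.56 to 0.26) were not called. In all, 3 members rose and 4 fell of 9 tested, beside 66.7% of all genes called.

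The shERG cells differed from the shCt cells far beyond the ETS family, and the share of calls that were higher was 60.5% with library totals and 43.9% with TMM, the median of all genes shifting by 0.183 between the scales. The counts that follow stand beside 66.7% of all genes called, 29.3% higher and 37.4% lower. Of 13 other ETS genes tested (ERG, the target of the knockdown, included), 3 rose and 7 fell. Among those that fell were ELK3 (-1.49), ELK1 (-1.2) and ELF4 (-1.03), and ERF, an ETS repressor, rose by 1.13. In a list of genes tied to epithelial ETS factors, 12 of 16 tested fell and 1 rose, with a median log2 change of -0.74 beside -0.05 over all genes. CREB3L1 (-2.7), AGR2 (-1.63), CLDN4 (-1.32) and ESRP1 (-1.25) were among those that fell. AGR2 is a secretory pathway chaperone, CREB3L1 a secretory transcription factor, CLDN4 a tight junction protein and ESRP1 an epithelial splicing regulator. Of 10 luminal prostate markers, 2 rose and 7 fell (median -0.8), summed marker levels in VCaP running from 8870 to 14000 CPM. Their part in the fall of SPDEF and ELF3 was not tested.

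Knockdown of ARID1A gave another pattern, with ELF3, EHF, ELF1 and ETV6 higher and SPDEF lower. ELF3 stood at 359.6 and 362 CPM with shARID1A, against 147 and 162 CPM with shCt, a 2.23-fold rise (1.16 ± 0.05, adjusted p = 2.79e-15). EHF stood at 699 and 707 CPM with shARID1A, against 344 and 348 CPM with shCt (0.96 ± 0.04, adjusted p = 9.84e-15). ELF1, an activator made in most tissues and prominent in blood cells, stood at 111 and 118 CPM with shARID1A, against 62.3 and 62.8 CPM with shCt (0.81 ± 0.05, adjusted p = 1.32e-11). These are the highest levels of ELF3, EHF and ELF1 among the 12 groups, with no overlap with the next group. ETV6 stood at 26.9 and 28.7 CPM with shARID1A, against 14.3 and 15.7 CPM with shCt (0.82 ± 0.09, adjusted p = 2.03e-08). ETS2 stood at 15.5 and 18.8 CPM, against 11 and 12.3 CPM with shCt (0.48 ± 0.11, adjusted p = 0.000461). Both genes rose without overlap between the groups.

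SPDEF stood at 279 and 288 CPM with shARID1A, against 349 and 359 CPM with shCt (-0.39 ± 0.04, adjusted p = 1.04e-07), and ELK4 at 73.6 and 84.4 CPM, against 92.3 and 104 CPM with shCt (-0.38 ± 0.06, adjusted p = 1.85e-05). Both fell. GABPA, at 83.3 and 83.7 CPM with shARID1A against 74.2 and 75.9 CPM with shCt, was not called with TMM (0.09 ± 0.05), but was with library totals (0.15, adjusted p = 0.0143). ETS1 was not called either (0.29, 95% interval -0.1 to 0.69). Of 9 members tested, 5 rose and 2 fell, where 66.1% of all genes were called. The list tied to epithelial ETS factors had 8 higher and 5 lower of 16 tested. CLDN4 (2.03), TGFBR2, a TGF-beta receptor (2.05), and AGR2 (1.1) rose, while the prostate-specific antigen gene KLK3 (-1.39) and TFF3 (-1.5) fell. TFF3 rests on few reads, at 0.5237 and 0.5153 CPM with shARID1A, against 1.644 and 1.185 CPM with shCt. ERG itself was lower by 0.58 on the log2 scale with shARID1A, at 238 and 242 CPM.

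The knockdowns were also set against each other directly, because comparisons with a shared control are not independent. With shARID1A, 6 members were higher and 2 lower than with shERG, of 9 tested, where 73% of all genes were called. ELF3 was 4.72-fold higher with shARID1A (2.24 ± 0.05, adjusted p = 4.4e-20) and SPDEF 3.37-fold higher (1.75 ± 0.05, adjusted p = 1.41e-18). ETS2 (1.06 ± 0.11), ELF1 (0.9 ± 0.05), ETV6 (0.55 ± 0.08) and EHF (0.36 ± 0.04) were higher too. GABPA (-0.3 ± 0.05, adjusted p = 1.5e-05) and ELK4 (-0.17 ± 0.06, adjusted p = 0.017) were lower, the ELK4 call being lost without shARID1A 2 (adjusted p = 0.0985). ETS1 was just short of a call (0.44 ± 0.2, adjusted p = 0.0505). Of the list tied to epithelial ETS factors, 13 of 16 tested were higher with shARID1A and none lower, with CREB3L1 (3.52) and CLDN4 (3.34) the farthest apart. Library totals shifted the median of all genes by -0.116 here, and none of the called members changed direction with it.

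**Figure D3:**
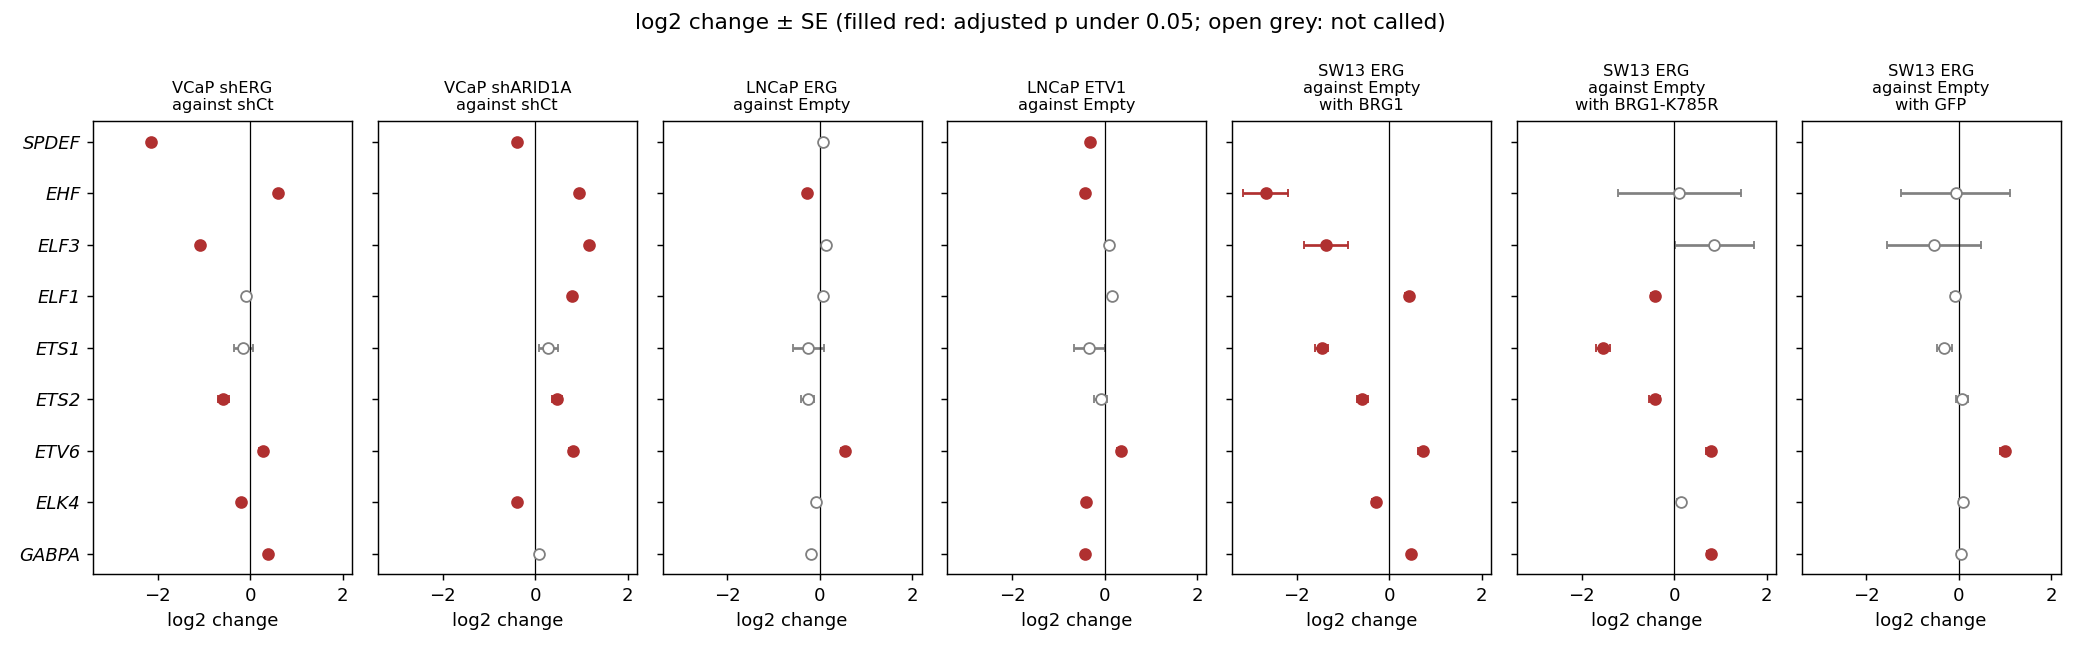
Log2 change with its SE for the members in 7 comparisons with the matching control (columns, FLI1 not drawn), filled red where called and open grey where not. ETV6 lies right of 0 in all 7, SPDEF is at -2.14 with shERG, and ETS1 is at -1.46 with BRG1 and -1.53 with BRG1-K785R but uncalled with GFP.

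In LNCaP, the called changes of the members with added ERG or ETV1 were at most 0.55 in size on the log2 scale. The repressor gene ETV6 was the one that rose with both. The Empty cells were not free of ETV1 (567.8 and 590.5 CPM), which was lower with ERG (-0.28, adjusted p = 0.00804). ETV6 stood at 18.2 and 19.2 CPM with ERG and 15.2 and 16.8 CPM with ETV1, against 12.2 and 13.3 CPM with Empty. Both comparisons use the same Empty libraries. Neither group overlapped the control, and the change was 0.55 ± 0.09 with ERG (adjusted p = 0.00182) and 0.36 ± 0.09 with ETV1 (adjusted p = 0.0159). The ETV1 call was lost without Empty 1 (adjusted p = 0.149) or ETV1 replicate 1 (0.0809). EHF stood at 497 and 528 CPM with ERG and 451 and 464 CPM with ETV1, against 624 and 629 CPM with Empty. It fell with both constructs, by 0.28 (SE 0.04, adjusted p = 0.00183) with ERG and by 0.42 (SE 0.04, adjusted p = 0.000258) with ETV1 on the log2 scale. With ERG these were the only calls, 1 higher and 1 lower of 10 members tested, where 29.7% of all genes were called.

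SPDEF was at 102 and 107 CPM with ERG and 74.6 and 83.8 CPM with ETV1, against 98.4 and 104 CPM with Empty. Its ERG and Empty libraries overlapped (0.06, 95% interval -0.07 to 0.18), while with ETV1 it fell (-0.31 ± 0.06, adjusted p = 0.0063), a call lost without Empty 2 (adjusted p = 0.0613). ELK4 stood at 117 and 119 CPM with ERG and 92.0 and 94.5 CPM with ETV1, against 126 and 127 CPM with Empty. GABPA stood at 42.2 and 46.6 CPM with ERG and 36.2 and 38.2 CPM with ETV1, against 51.0 and 51.0 CPM with Empty. Both fell with ETV1 (ELK4 -0.41 ± 0.04, adjusted p = 0.000277; GABPA -0.42 ± 0.06, adjusted p = 0.00163). With ERG, ELK4 was not called (-0.09 ± 0.04, adjusted p = 0.151), and GABPA lay at the threshold (-0.19 ± 0.06, adjusted p = 0.0515 with TMM and 0.0424 with library totals). With ETV1, 1 member rose and 4 fell of 10 tested, where 26.1% of all genes were called. The higher share of those calls was 40% with library totals and 50.5% with TMM.

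ELF3 (29.2 ± 2.26 CPM with ERG, 28.0 ± 0.147 with ETV1 and 26.8 ± 0.69 with Empty, SD) and ELF1 (38.7 ± 1.13, 40.2 ± 2.76 and 37.0 ± 1.13 CPM in the same order) were not called with either construct. The ETS2 libraries were at 9.27 and 12.5 CPM with ERG and 11.2 and 12.9 CPM with ETV1, against 12.7 and 13.4 CPM with Empty. Without ERG replicate 2, ETS2 was lower with ERG (-0.48, adjusted p = 0.0233), and with all libraries it was not called (-0.26 ± 0.14). ETS1 was at 2.87 and 6.48 CPM in the Empty libraries, and its ERG and ETV1 libraries, between 2.96 and 4.31 CPM, lay inside that spread. Compared directly, ERG cells had more SPDEF (0.37 ± 0.06, adjusted p = 0.00551), ELK4 (0.31 ± 0.04, adjusted p = 0.00218) and GABPA (0.23 ± 0.06, adjusted p = 0.0441) than ETV1 cells. These were 3 of 10 members, where 14.4% of all genes were called, 64.8% of them higher with library totals and 54.8% with TMM. The GABPA call was lost with DESeq2 (adjusted p = 0.0618), with the compared groups alone (0.0831) and with a block for the replicate number (0.0795). It was also lost without any of 3 single libraries (ERG 1, ETV1 replicate 1 or ETV1 replicate 2), where the change was 0.15 to 0.26. EHF was not called between ERG and ETV1 with TMM (0.14 ± 0.04, adjusted p = 0.0774), but was with library totals (0.16, adjusted p = 0.0389). ETV6 did not pass (0.19, 95% interval 0.02 to 0.36, adjusted p = 0.174).

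In SW13 without ERG, BRG1 went with higher levels of most members. Of 8 tested, 7 were higher with BRG1 than with GFP and 1, GABPA, was lower (EHF and ELF3, among the 7, are given as reads further on), where 62.4% of all genes were called. EHF and ELF3 had most of their SW13 reads in BRG1 with Empty. EHF passed the low-count filter of the fit only through that group, so its place among the 7 was largely set by the filter. ETS1, a RAS-responsive factor that binds DNA with RUNX proteins, stood at 13.7 and 15.8 CPM with BRG1, against 5.43 and 5.96 CPM with GFP (1.24 ± 0.14, adjusted p = 4.39e-09). ETS2 stood at 19.0 and 21.0 CPM with BRG1, against 8.02 and 8.82 CPM with GFP (1.11 ± 0.12, adjusted p = 9.62e-10). Both were higher with BRG1, with no overlap. ELK4 stood at 77.9 and 79.5 CPM with BRG1, against 40.9 and 43.0 CPM with GFP (0.78 ± 0.08, adjusted p = 8.05e-10), and ETV6 at 27.2 and 31.7 CPM, against 15.6 and 17.9 CPM with GFP (0.68 ± 0.1, adjusted p = 5.89e-07). ELF1 stood at 29.4 and 30.1 CPM with BRG1, against 22.1 and 22.5 CPM with GFP (0.28 ± 0.09, adjusted p = 0.0062), a call lost without GFP Empty 1 (adjusted p = 0.0639) or BRG1 Empty 1 (0.0522). GABPA fell, to 62.2 and 62.4 CPM with BRG1, against 74.8 and 76.1 CPM with GFP (-0.41 ± 0.08, adjusted p = 3.26e-05). Marker lists moved beside the members. The 4 mesenchymal markers summed to 312 to 321 CPM with BRG1, against 84.9 to 93.2 CPM with GFP (3 higher, 0 lower), and the 10 luminal markers to 77.1 to 79.3 CPM with BRG1, against 16.1 to 18 CPM with GFP (4 higher, 0 lower of 8 tested). Their part in the members' levels was not tested. The higher share of all calls was 64.1% with library totals and 51.6% with TMM, with a median shift of 0.133.

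The ATPase mutant, set against the same GFP libraries, shared part of this. With BRG1-K785R and no ERG, ETS1 stood at 10.8 and 12.7 CPM, against 5.43 and 5.96 CPM with GFP (1.12 ± 0.14, adjusted p = 5.53e-08), and ETS2 at 15.5 and 15.7 CPM, against 8.02 and 8.82 CPM with GFP (0.97 ± 0.12, adjusted p = 2.72e-08). ELF1 was higher as well (0.59 ± 0.09, adjusted p = 6.17e-07), and GABPA lower (-0.61 ± 0.08, adjusted p = 6.33e-08), at 43.5 and 50.1 CPM. That made 3 members higher and 1 lower of 8 tested, where 58.7% of all genes were called. ETV6 (-0.09, 95% interval -0.3 to 0.12) and ELK4 (0.19 ± 0.08, adjusted p = 0.0566) were not called between BRG1-K785R and GFP, though ELK4 was without BRG1-K785R Empty 1 (0.24, adjusted p = 0.043).

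Set directly against the mutant, BRG1 cells had more ETV6 (0.77 ± 0.1, adjusted p = 5.93e-08) and ELK4 (0.59 ± 0.08, adjusted p = 1.22e-07). ETS1 (0.12, 95% interval -0.13 to 0.37) and ETS2 (0.14, 95% interval -0.07 to 0.36) were not called with TMM, and were higher with BRG1 when library totals were the scale (0.33 and 0.36, adjusted p = 0.0246 and 0.00523). ELF1 was lower with BRG1 (-0.31 ± 0.09, adjusted p = 0.00169), but not with library totals (-0.1, adjusted p = 0.272). GABPA was higher (0.2 ± 0.08, adjusted p = 0.0262), a call lost with no filter on low counts (0.18, adjusted p = 0.0604). It was also lost without any of BRG1-K785R Empty 1, BRG1 Empty 1 or BRG1 Empty 2, where the change was 0.1 to 0.21. With EHF and ELF3 counted, 5 of 8 tested were higher and 1 lower, where 66.7% of all genes were called. EHF entered this count only through its reads in BRG1 with Empty, by the low-count filter. The scale matters here, since library totals shifted the median of all genes by 0.213 and made 66% of calls higher, against 48.9% with TMM. In the BRG1-K785R Empty libraries the 10 leading genes took 6.64 and 7.18% of all reads, against 3.3 to 5.95% in the other libraries. The part of this in the results was not tested.

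ETV6 rose with ERG in each of the SW13 backgrounds. It stood at 45.1 and 48.4 CPM with ERG and BRG1, against 27.2 and 31.7 CPM with Empty and BRG1 (0.72 ± 0.09, adjusted p = 1.2e-07). Beside BRG1-K785R it stood at 28.7 and 30.2 CPM with ERG, against 14.6 and 15.1 CPM with Empty (0.79 ± 0.1, adjusted p = 7.57e-08). Beside GFP it stood at 33.4 and 35.6 CPM with ERG, against 15.6 and 17.9 CPM with Empty (0.99 ± 0.1, adjusted p = 1.06e-08). No ERG library overlapped its control, and ETV6 was the one member called for ERG beside GFP, 1 of 8 tested, where 26% of all genes were called. The effect of ERG on ETV6 was not called as different between backgrounds (BRG1 minus GFP -0.27, 95% interval -0.54 to -0.01, adjusted p = 0.115), though it was with library totals (-0.37, adjusted p = 0.03) and without GFP Empty 2 (-0.4, adjusted p = 0.046). The higher share of calls for ERG beside GFP was 62% with library totals and 48.3% with TMM.

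ETS1 and ETS2 fell with ERG where BRG1 or BRG1-K785R was present. ETS1 stood at 4.96 and 5.48 CPM with ERG and BRG1, against 13.7 and 15.8 CPM with Empty and BRG1 (-1.46 ± 0.14, adjusted p = 4.45e-10). Beside BRG1-K785R it stood at 4.20 and 5.06 CPM with ERG, against 10.8 and 12.7 CPM with Empty (-1.53 ± 0.15, adjusted p = 5.12e-10). Beside GFP it stood at 4.76 and 4.80 CPM with ERG, against 5.43 and 5.96 CPM with Empty, and was not called (-0.31 ± 0.16, adjusted p = 0.165). With ERG, then, ETS1 was between 4.20 and 5.48 CPM in all 6 libraries. The effect of ERG differed between BRG1 and GFP by -1.15 ± 0.22 (adjusted p = 9.35e-05) and between BRG1-K785R and GFP by -1.22 ± 0.23 (adjusted p = 5.27e-05). Between BRG1 and BRG1-K785R it did not (0.07, 95% interval -0.35 to 0.49).

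ETS2 stood at 12.3 and 13.8 CPM with ERG and BRG1, against 19.0 and 21.0 CPM with Empty and BRG1 (-0.58 ± 0.11, adjusted p = 7.05e-05). Beside BRG1-K785R it stood at 13.0 and 13.5 CPM with ERG, against 15.5 and 15.7 CPM with Empty (-0.42 ± 0.12, adjusted p = 0.00258), a call lost with library totals (-0.23, adjusted p = 0.0836). Beside GFP the groups were at 8.66 and 9.68 CPM with ERG, against 8.02 and 8.82 CPM with Empty, and overlapped (0.07, 95% interval -0.18 to 0.32). The difference of effects was called between BRG1 and GFP (-0.64 ± 0.17, adjusted p = 0.00303). Between BRG1 and BRG1-K785R it was not called with TMM (-0.16, 95% interval -0.47 to 0.16), but was with library totals (-0.39, adjusted p = 0.0477).

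GABPA rose with ERG beside either form of BRG1. It stood at 79.8 and 88.3 CPM with ERG and BRG1, against 62.2 and 62.4 CPM with Empty and BRG1 (0.48 ± 0.08, adjusted p = 6.24e-06). Beside BRG1-K785R it stood at 92.4 and 93.5 CPM with ERG, against 43.5 and 50.1 CPM with Empty (0.8 ± 0.08, adjusted p = 3.64e-10). Beside GFP it stood at 78.3 and 82.8 CPM with ERG, against 74.8 and 76.1 CPM with Empty, and was not called (0.04, 95% interval -0.11 to 0.19). Its partner gene GABPB1 rose with ERG in all 3 backgrounds, by 1.04 beside BRG1, 0.63 beside BRG1-K785R and 0.29 beside GFP.

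ELF1 took opposite directions. It stood at 38.0 and 39.4 CPM with ERG and BRG1, against 29.4 and 30.1 CPM with Empty and BRG1, and rose (0.42 ± 0.08, adjusted p = 0.000103). Beside BRG1-K785R it stood at 26.8 and 27.9 CPM with ERG, against 31.5 and 32.3 CPM with Empty, and fell (-0.41 ± 0.09, adjusted p = 0.00017). The effects differed by 0.83 ± 0.12 (adjusted p = 1.31e-06). ELK4 fell with ERG beside BRG1 (-0.29 ± 0.08, adjusted p = 0.00296), to 56.9 and 67.7 CPM, against 77.9 and 79.5 CPM with Empty, a call lost without BRG1 ERG 1 (adjusted p = 0.148). Beside BRG1-K785R, ELK4 was called with library totals (0.33, adjusted p = 0.00161) and not with TMM (0.14 ± 0.08).

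Counted together, 3 members rose and 5 fell with ERG beside BRG1, where 45.4% of all genes were called, and 2 rose and 3 fell of 8 beside BRG1-K785R, where 56.2% were. EHF and ELF3 are among the 5 that fell beside BRG1. EHF passed the low-count filter only through BRG1 with Empty, the group where it was high. Beside BRG1-K785R the higher share of all calls was 64.6% with library totals and 45.1% with TMM, with a median shift of 0.188. The difference of ERG effects was called for 5 of 8 members between BRG1 and GFP (37.8% of all genes), 3 between BRG1 and BRG1-K785R (46.2%) and 4 between BRG1-K785R and GFP (39.8%). With library totals those differences were higher for 37.1%, 29.9% and 59.8% of all calls, against 50.4%, 55.8% and 43.8% with TMM, the last pair of comparisons having median shifts of -0.234 and 0.135. The mesenchymal markers summed to 1630 to 1870 CPM with ERG and BRG1, against 312 to 321 CPM with Empty and BRG1 (2 higher and 1 lower of 4). Most of that rise was SPARC, at 1459 and 1698 CPM with ERG, against 108.1 and 121.5 CPM with Empty. ZEB1 stood higher too. VIM stood lower, at 117.9 and 114.5 CPM with ERG, against 170.2 and 165.9 CPM with Empty, and so did CDH2. The part of these markers in the members' changes was not tested. The level of the remodeler transcript also differed. SMARCA4 stood at 1417 and 1430 CPM with ERG and BRG1-K785R, against 2180 and 2039 CPM with Empty and BRG1-K785R (-0.76 ± 0.08, adjusted p = 6.88e-10), and this change differed from that beside GFP by -0.97 (adjusted p = 1.03e-07). Beside BRG1 it was not called (0, 95% interval -0.15 to 0.15). The part of SMARCA4 in the members' changes beside BRG1-K785R was not tested. Other ETS genes were counted as well, ERG itself, which the construct supplies, included. With ERG beside BRG1, 4 of 15 tested rose and 8 fell, where 45.4% of all genes were called. Those that fell included ETV4 (-1.65) and ETV5 (-0.88), close relatives of ETV1. Beside GFP 3 of 15 tested rose, ERG, ETV1 (0.4) and ERF (0.27), and none fell, where 26% of all genes were called.

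SPDEF, EHF and ELF3 stayed near the limit of detection in SW13, and EHF and ELF3 had their highest read numbers with BRG1. EHF had 48 and 41 reads with BRG1 and Empty, against 3 and 1 with GFP and Empty, a ratio of 20.7 (exact 95% interval 7.82 to 77.8, counting error only). ELF3 had 27 and 36 reads with BRG1, against 4 and 3 with GFP, a ratio of 8.39 (3.84 to 21.7). Both were called (adjusted p = 9.74e-07 for EHF and 0.000146 for ELF3). EHF passed the low-count filter only through BRG1 with Empty, so its call is not independent of that filter. Against BRG1-K785R with Empty, which had 2 and 1 reads of EHF and 7 and 0 of ELF3, the ratios were 28.1 (9.3 to 139) for EHF and 8.51 (3.9 to 22) for ELF3. SPDEF had 10 and 12 reads with BRG1, against 6 and 3 with GFP, a ratio of 2.28 (1.01 to 5.62), and was too low to be tested. At 1.65 and 1.81 CPM, EHF with BRG1 was still far below its LNCaP levels of 451 to 629 CPM.

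With ERG added beside BRG1, EHF had 11 and 2 reads, against 48 and 41 with Empty, a ratio of 0.149 (0.0764 to 0.268). It was called lower (adjusted p = 4.2e-05). Since EHF passed the low-count filter only through BRG1 with Empty, a fall from that group was largely set by the filter. ELF3 had 8 and 15 reads with ERG, against 27 and 36 with Empty, a ratio of 0.373 (0.221 to 0.61), and its call (adjusted p = 0.0199) was lost with DESeq2 (0.154) and without BRG1 Empty 2 (0.177) or BRG1 ERG 1 (0.183). For neither gene was the ERG effect called as different from that beside GFP (EHF -2.61, adjusted p = 0.144, and ELF3 -0.84, adjusted p = 0.629), where reads were between 1 and 4. Without BRG1 ERG 1, which left BRG1 with ERG at 1 library of 2 EHF reads, the EHF difference was -4.24. Between BRG1 and BRG1-K785R the differences were not called either (EHF -2.78, adjusted p = 0.152, and ELF3 -2.24, adjusted p = 0.0606). There the EHF difference was -4.42 without BRG1 ERG 1. That of ELF3 was called with no filter on low counts (adjusted p = 0.0476). It was -7.19 to -2.74 without BRG1-K785R Empty 1, BRG1-K785R ERG 1 or BRG1 ERG 2. These values rest on libraries with 0 to 15 reads in every SW13 group but BRG1 with Empty.

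Of the list tied to epithelial ETS factors, 6 of 11 tested were higher with BRG1 than with GFP and 1 was lower, a share of calls near the 62.4% of all genes, with a median of 1.78 beside 0.03 over all genes. The adhesion gene CDH1 stood at 5.72 and 6.67 CPM with BRG1, against 0.134 and 0.118 CPM with GFP, and CLDN4 at 13.2 and 11.9 CPM, against 1.11 and 0.392 CPM with GFP. The 1 that was lower was the tight junction gene CLDN7 (-1.84, adjusted p = 0.00154), at few reads. It stood at 0.2257 and 0.2411 CPM with BRG1, against 0.8018 and 0.7444 CPM with GFP. With ERG beside BRG1, 1 of the 11 rose, 3 fell and 7 were not called, where 45.4% of all genes were called, with a median of -0.28. The 3 that fell were CREB3L1 (-2.13), CDH1, at 1.80 and 2.32 CPM with ERG (-1.54), and CLDN4, at 5.36 and 3.35 CPM with ERG (-1.49). CLDN7 rose (1.28), but at few reads, with 0.5995 and 0.5121 CPM with ERG, against 0.2257 and 0.2411 CPM with Empty. That was still below its level with GFP and Empty.

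**Figure D4:**
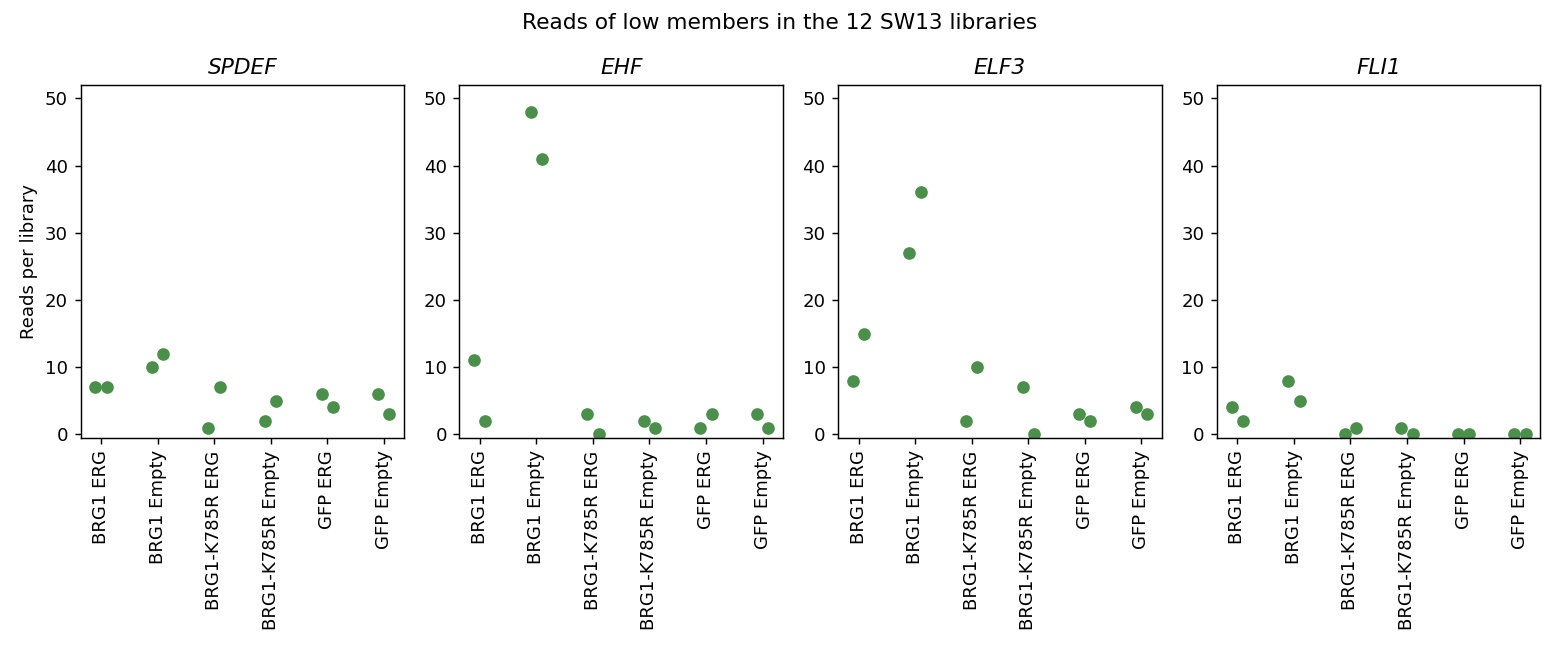
Reads per library of SPDEF, EHF, ELF3 and FLI1 in the 12 SW13 libraries (points, same linear axis). EHF and ELF3 reach 27 to 48 reads with BRG1 and Empty and 2 to 15 with BRG1 and ERG, and SPDEF and FLI1 stay at or under 12 reads.

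FLI1 was barely read in any group. It had 0 reads in all 6 VCaP libraries and in the 4 SW13 libraries with GFP, also in the ERG pair with 1474 and 1587 CPM of its relative ERG. In LNCaP it had 0 and 4 reads with ERG and 16 and 1 with ETV1, against 2 and 24 with Empty, so that 1 library of each of the last groups held most of the reads. In SW13 it had 4 and 2 reads with BRG1 and ERG and 8 and 5 with BRG1 and Empty, against 0 or 1 in the 4 libraries with BRG1-K785R. Over both libraries, BRG1 with Empty had 13 reads and GFP with Empty had 0. The ratio was 4.04 with 3 reads put in as the floor for GFP with Empty. That value leaves out the counting error of the 13 reads, so it is not a lower limit. In LNCaP it was not called (adjusted p = 0.275 with ERG and 0.782 with ETV1). FLI1 was not tested within VCaP or SW13, and its calls between control groups rest on the LNCaP Empty library with 24 reads. The endothelial genes CDH5, PECAM1, VWF, TEK and KDR are made where FLI1 and ERG are normally active. All 5 were higher with ERG than with Empty beside BRG1, where 45.4% of all genes were called, 22.6% higher. Beside GFP none of the 5 was called, and beside BRG1-K785R 1 was called, higher. CDH5 stood at 2.68 and 2.68 CPM with ERG, against 0.527 and 0.643 CPM with Empty, and KDR at 20.6 and 27.7 CPM, against 0.752 and 1.45 CPM with Empty.

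Genes known to act with or on ETS factors were counted as well. Of 18 partners and regulators, 4 rose and 8 fell with shERG, 6 rose and 5 fell with shARID1A, 3 rose and 2 fell with LNCaP ERG, and 2 rose and 5 fell with LNCaP ETV1. The shares of all genes called there were 66.7, 66.1, 29.7 and 26.1% in the same order, so that the counts with shERG, shARID1A and LNCaP ERG are near the share of all genes. With ERG in SW13 the counts were 4 higher and 7 lower beside BRG1, 3 and 10 beside BRG1-K785R, and 5 and 0 beside GFP, where 45.4, 56.2 and 26% of all genes were called. RUNX1 and CBFB, which form the complex that ETS1 binds DNA with, fell with shERG (-2.13 and -1.15), and RUNX1 rose with LNCaP ERG (1.02). The coactivator genes CREBBP and EP300 fell with ERG beside BRG1 (-0.38 and -0.44) and BRG1-K785R (-1.18 and -0.83) and rose beside GFP (0.38 and 0.45). SRF, the partner of ELK4, fell with ERG beside BRG1 (-0.33) and BRG1-K785R (-0.61).

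The genes most like a member were taken by Pearson correlation of log2(CPM + 1) over the 24 libraries, each gene centred on its mean in each line, among 11866 genes whose mean was 5 CPM or more. These values are descriptions, since the libraries share 12 groups and their constructs. SPDEF and ELF3 varied most within VCaP, so their values rest largely on the VCaP libraries. SPDEF ran from 88.9 to 359 CPM in VCaP, from 74.6 to 107 CPM in LNCaP and to 0.482 CPM at most in SW13. SPDEF ran with ESRP1 (r = 0.97) and with the related gamma-glutamyltransferase genes GGTLC2 (0.97) and GGT1 (0.96), which share sequence, so that their reads are uncertain. ELF3 ran with the sodium channel gene SCNN1A (0.96), FOSL2 (0.95) and IKBKB (0.95), and EHF with the potassium channel gene KCNQ3 (0.89), SSH1 (0.88) and DCBLD2 (0.87). ETV6 ran with SPTAN1 (0.93), STAT2 (0.92) and NMI (0.9), and ELF1 with SERPINE2 (0.96), TRAFD1 (0.96) and HLA-E (0.94). GABPA ran with STYX, MTF2 (0.94 each) and ZBTB33 (0.93), and ELK4 with ZNF326 (0.94), FAM105A (0.92) and ELL2 (0.9). ETS2 ran with TEAD3 (0.91), TOM1L2 and PLCE1 (0.9 each), and ETS1 with NOTCH2 (0.88), ATP6V1B2 (0.84) and RIPK4 (0.82). FLI1, with few reads, reached 0.66 at most (CD44).

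Across all 12 groups the members kept different orders of level. SPDEF ran highest with VCaP shCt (354 ± 7.1 CPM, SD) and lowest in SW13, its LNCaP ERG and Empty groups overlapping. ELF1 ran from 115 CPM with VCaP shARID1A to 21.9 CPM with SW13 GFP ERG, with LNCaP ETV1, LNCaP ERG and SW13 BRG1 ERG (40.2 to 38.7 CPM) overlapping in the middle. ETS2 ran from 20.0 CPM with SW13 BRG1 Empty to 8.42 CPM with SW13 GFP Empty, and most neighbours in that order overlapped. ELK4 was highest with LNCaP Empty (127 CPM) and lowest with SW13 GFP Empty (42.0 CPM). Its reads may include read-through RNA from the neighbouring gene SLC45A3, known in prostate cells, which these counts do not separate.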

How the data were processed

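PolyA RNA was sequenced as 75-base single-end reads in 24 libraries, in 12 groups of 2 named in the labels. The authors deposited read counts, a gene length (the other column) and RPKM values per gene. The deposited counts are whole numbers and they alone were tested, and the deposited RPKM values equal the counts divided by length and library total (checked, largest relative deviation 5e-06). Per the submitters' processing notes, STAR 2.3.1 and hg19 were used. How reads were counted, on which annotation and with which strand setting is not given in the sources used here, so reads of a gene and of an overlapping antisense gene cannot be told apart. The titles call the SW13 control GFP but the protocol speaks of luciferase, and GFP is written throughout. Promoter stretches come from RefSeq in another build, and no coordinates were carried over between builds.

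CPM here is a count divided by the library total. A fit held all groups of 1 line, and the control groups in 1 fit of all 24 libraries, with edgeR 4.0.16 in R 4.3.3 (filterByExpr by group, TMM, quasi-likelihood F test). In all, 16791 (VCaP), 16993 (LNCaP), 17018 (SW13) and 18999 (all) genes were tested, with residual degrees of freedom of 3, 3, 6 and 12. Replicate libraries differed beyond counting error (chi-square per degree of freedom 2.27 to 13.1), and intervals on read ratios cover counting error only. FLI1 in VCaP and SPDEF and FLI1 in SW13 were left out by the filter and are given as reads. SE is the log2 change divided by the root of F, and can be too small at few reads. The scripts were tested on simulated data. Tables and figures were made with pandas 2.3.3, scipy 1.17.1 and matplotlib 3.10.9. The 10 members and all gene lists were chosen with earlier results of these data known, and all members are named. From the lists, genes were named as examples. Alternatives were DESeq2 1.42.0, RLE scaling, library totals in place of TMM, fits with no filter, with the compared groups alone, with a block for the replicate number, without each library in turn, without both BRG1-K785R Empty libraries, and TMM-scaled CPM for levels. Replicate numbers were not read as pairs, since the labels describe independent infections.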

Additional observations from a re-analysis of the deposited data

Results flagged for a closer look

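The effect of ERG in SW13 cells was not the same beside BRG1, BRG1-K785R and GFP for several members, by the tested difference between log2 changes. Between BRG1 and GFP it differed by 0.5 for ELF1 (adjusted p = 0.00163), -1.15 for ETS1 (9.35e-05), -0.64 for ETS2 (0.00303), -0.38 for ELK4 (0.00925) and 0.44 for GABPA (0.00199). Between BRG1 and BRG1-K785R it differed by 0.83 for ELF1 (1.31e-06), -0.43 for ELK4 (0.00242) and -0.33 for GABPA (0.0162). Between BRG1-K785R and GFP it differed by -0.33 for ELF1 (0.0348), -1.22 for ETS1 (5.27e-05), -0.49 for ETS2 (0.0234) and 0.76 for GABPA (1.5e-06). In the ERG libraries ETS1 ran from 4.20 to 5.48 CPM and in the Empty libraries from 5.43 to 15.8 CPM. The GABPA difference between BRG1 and BRG1-K785R was lost in 4 of the fits that left out 1 library (without BRG1-K785R Empty 1, BRG1-K785R ERG 1, BRG1 Empty 1 or BRG1 ERG 1, adjusted p = 0.0508 to 0.129). The ELK4 difference between BRG1 and GFP was lost without BRG1 ERG 1 (0.104). Those of ELF1 and ETS2 between BRG1-K785R and GFP were lost with library totals (0.2 and 0.0997) and with DESeq2 (0.0709 and 0.0584), and that of ELF1 with the compared groups alone (0.0767). Both were lost without GFP Empty 1, GFP ERG 2 or BRG1-K785R ERG 2, and ELF1 also without BRG1-K785R Empty 1 or BRG1-K785R ERG 1. In those fits the difference was -0.28 to -0.34 for ELF1 and -0.4 to -0.44 for ETS2.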

How the results depend on the processing

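No called log2 change of a member reversed under any alternative that was run. Of the members' log2 changes under alternatives, 1627 kept their side of the threshold, 57 lost it and 21 passed it newly, and those that touch a value given above stand beside it in most cases. The number of members whose ERG effect differed between BRG1-K785R and GFP was 4, but 2 with library totals and 2 with DESeq2, and 2 to 4 when single libraries were left out. The cause was not tested. With the replicate block, GABPA between LNCaP ERG and ETV1 was no longer called (0.23, adjusted p = 0.0795), and the block changed no other call of a member. Libraries with the same number did not deviate together (correlations of -0.01 to 0.04 in VCaP, -0.08 to -0.02 in LNCaP and -0.1 to 0.12 in SW13). Leaving out 1 library of a pair lowered the count of all genes called from 5045 to as few as 2632 for LNCaP ERG, from 4439 to 1987 for LNCaP ETV1, from 2441 to 1003 between them, and from 4433 to 1743 for SW13 ERG beside GFP, fits with fewer samples. The lone library left in a group was then assumed to vary like the others. TMM-scaled CPM moved 31 of the 120 group levels by more than 1 SD. Few reads limit SPDEF, EHF, ELF3 and FLI1 in SW13.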
